A study of Mus musculus with 4 samples.

Results

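The Kv4 channel complex was followed across 4 RNA sequencing libraries of sorted mouse striatal spiny projection neurons. Its 9 genes were taken by symbol from the 37620 Ensembl identifiers of the deposited tables, and all 9 were found. They fall into 3 roles, the pore-forming subunits Kcnd1, Kcnd2 and Kcnd3, the potassium channel interacting proteins (KChIPs) Kcnip1, Kcnip2, Kcnip3 and Kcnip4, and the dipeptidyl peptidase-like proteins (DPLPs) Dpp6 and Dpp10.

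Kv4 channels are voltage-gated potassium channels that open at potentials near the spike threshold and inactivate within milliseconds, and the A-type current they carry in the dendrites of spiny neurons delays firing and limits the spread of depolarization. The pore is a tetramer of Kcnd subunits. KChIPs are calcium-binding proteins of the cytosol that bind the subunits' amino terminus, carry the channel to the membrane and slow its inactivation, while DPLPs are single-pass membrane proteins without peptidase activity that speed its gating.

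The neurons came from male mice aged 5 to 6 months on a C57BL6/J background, all carrying a bacterial artificial chromosome transgene in which either Drd1 or Drd2 regulatory sequence drives EGFP. Drd1-EGFP mice gave direct-pathway neurons (D1) and Drd2-EGFP mice gave indirect-pathway neurons (D2), each sorted on EGFP. The mice were either heterozygous for the zQ175 knock-in (Q175), an expanded CAG repeat in Htt that models Huntington's disease, or wild type (WT). Every combination of neuron type and genotype was sequenced as a single library from a pool of 4 animals, so there were no replicates. The reporter line and the neuron type cannot be separated, because each line marked a single type.

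Library totals lay between 39444117 and 42787068 counts. The summed level of 8 D1 neuron markers was 4781 and 3333 normalized CPM (counts scaled for depth and composition between libraries) in D1 WT and D1 Q175 against 190 and 134 in D2 WT and D2 Q175. For 6 D2 neuron markers the sums were 110 and 57.3 CPM in the D1 libraries against 12340 and 6727 in the D2 libraries, so the labelled cell types matched their markers. Of the markers of all spiny neurons, Ppp1r1b, Rgs9, Pde10a and Bcl11b fell in Q175 in the edgeR fit described below, with log2 effects of -0.73 (adjusted p = 2.6e-05), -0.71 (1.2e-05), -1.17 (1.5e-07) and -0.47 (0.00042). Mitochondrially encoded genes took 6.06% (WT) and 8.98% (Q175) of counts in D1 and 6.49% (WT) and 11.06% (Q175) in D2. Htt, the knock-in locus, had 159 (WT) and 116 (Q175) CPM in D1 and 154 (WT) and 121 (Q175) CPM in D2 (log2 effect -0.41; edgeR adjusted p = 0.00095), which does not separate the alleles.

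Levels of different genes were compared on the authors' FPKM, which is scaled to transcript length. Kcnip2 was the most abundant member in every library, with 516 FPKM (WT) and 463 FPKM (Q175) in D1 and 502 FPKM (WT) and 400 FPKM (Q175) in D2. Here and below, 4 values in a row give D1 before D2 and, within each, WT before Q175. Kcnip2 ranked at place 61 of all genes in D1 WT and at place 62 in D2 WT. Dpp6 (73.0, 73.1, 80.8 and 78.7 FPKM in the same order) and Kcnip3 (69.2, 60.9, 66.1 and 57.3 FPKM) followed, and Kcnd2, which encodes Kv4.2, was the leading pore subunit with 49.7, 41.7, 41.4 and 35.7 FPKM.

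A middle tier was formed by Kcnip4, between 15.03 and 19.0 FPKM, and by Dpp10, between 6.46 and 13.7 FPKM. Kcnd1, which encodes Kv4.1, lay between 5.08 and 5.80 FPKM, and Kcnd3, which encodes Kv4.3, between 2.78 and 5.04 FPKM. Kcnip1 was the lowest, from 0.206 FPKM in D1 WT to 0.917 in D2 Q175, and rested on 15 to 72 counts per library. The order of the 3 highest members was the same in all 4 libraries, whereas Dpp10 stood above Kcnd1 by little in D1 WT and by more than 2-fold in D2 Q175.

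**Figure D1:**
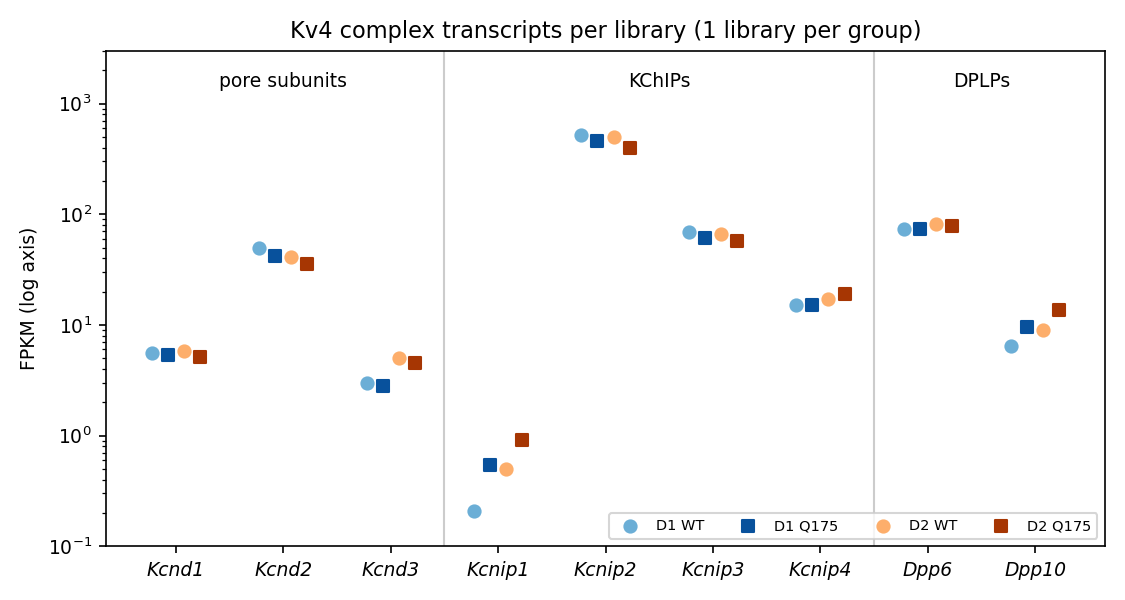
FPKM (log axis) of the 9 Kv4 complex genes, with 1 point per library and the genes grouped by role. Kcnip2 lies between 400 and 516 FPKM, Kcnd2 between 35.7 and 49.7, and Kcnip1 stays under 1 FPKM in all 4 libraries.

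Each role was dominated by a single gene. Of the summed pore subunit FPKM, Kcnd2 made up 85.4% (WT) and 83.8% (Q175) in D1 and 79.2% (WT) and 78.7% (Q175) in D2. Kcnip2 made up between 83.8% and 85.9% of the KChIP sum. Of the DPLP sum, Dpp6 made up 91.9% (WT) and 88.5% (Q175) in D1 and 89.9% (WT) and 85.2% (Q175) in D2, so the share of Dpp10 was higher in each Q175 library than in its WT counterpart.

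RefSeq promoter windows, from 250 bases before to 50 bases after a transcript start in GRCm38.p6, were found for 8 of the 9 members (15 windows). The build behind the deposited tables is not given in the sources used here. The 250 bases before the start are printed for the 3 members that fell in Q175 and for Dpp10, which rose, so that the letters of genes moving together and apart can be compared. Each runs 5′ to 3′ on the gene's strand, and capitals mark the letters TGANTCA, a binding motif of AP-1 transcription factors. Where a gene has several windows the first listed is shown.
Kcnd2, chr6:21215096-21215345, plus strand: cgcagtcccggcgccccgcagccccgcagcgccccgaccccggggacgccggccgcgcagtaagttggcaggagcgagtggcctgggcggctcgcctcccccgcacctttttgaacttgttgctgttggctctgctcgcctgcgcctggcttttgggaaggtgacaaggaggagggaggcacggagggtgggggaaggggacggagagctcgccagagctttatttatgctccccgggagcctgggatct
Kcnip2, chr19:45816064-45816313, minus strand: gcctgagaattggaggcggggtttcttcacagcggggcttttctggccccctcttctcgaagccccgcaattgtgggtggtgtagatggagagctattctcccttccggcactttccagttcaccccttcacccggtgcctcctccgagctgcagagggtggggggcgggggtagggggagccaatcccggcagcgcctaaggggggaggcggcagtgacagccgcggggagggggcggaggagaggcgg
Kcnip3, chr2:127522095-127522344, minus strand: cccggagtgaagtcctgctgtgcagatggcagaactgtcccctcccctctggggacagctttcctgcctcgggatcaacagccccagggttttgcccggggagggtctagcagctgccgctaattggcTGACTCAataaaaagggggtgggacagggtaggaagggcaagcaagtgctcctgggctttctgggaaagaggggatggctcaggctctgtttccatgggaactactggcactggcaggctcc
Dpp10, chr1:124045560-124045809, minus strand: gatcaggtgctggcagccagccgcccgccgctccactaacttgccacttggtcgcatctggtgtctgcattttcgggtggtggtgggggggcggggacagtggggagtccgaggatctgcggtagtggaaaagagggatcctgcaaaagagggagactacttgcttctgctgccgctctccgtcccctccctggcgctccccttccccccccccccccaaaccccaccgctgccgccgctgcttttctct

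AP-1 letters were found on either strand in 2 of the 15 windows, in the first of 3 windows of Kcnip3 and in the first of 2 of Kcnip4, and in 7.81% of 32851 windows of all genes. The full cAMP response element TGACGTCA, its shorter core TGACG and the EGR motif GCGNGGGCG were in 0 of the 15 windows, against 1.79%, 20.8% and 5.55% of all windows. The full element contains the core, so these counts overlap. The windows of Kcnd2 (68.7% G and C, 26 CpG), Kcnip2 (67.0%, 18 CpG) and Dpp10 (65.0%, 21 CpG) were richer in CpG than the median window, with 52.7% and 7 CpG. The printed window of Kcnip3 (60.3%, 8 CpG) was close to the median in CpG. Its windows that are not printed differed, with 58.0% and 4 CpG in one and 73.3% and 28 CpG in another. The window with 28 CpG was richer in CpG than those of Kcnd2, Kcnip2 and Dpp10. Which start of Kcnip3 these neurons use was not tested, so the printed window does not describe the gene as a whole.

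The comparison of Q175 with WT asked how the knock-in changes the complex. In an additive edgeR quasi-likelihood model (genotype plus cell type, 4 libraries), 3 of 9 members fell and 2 rose at a Benjamini-Hochberg adjusted p of 0.05. Of all 15651 genes tested, 14.1% fell and 12.8% rose, and with library totals as the scale 67.3% of the calls were upward against 47.5% here. The median log2 effect of the members was -0.20, beside -0.0036 for all genes tested. In either direction 26.9% of all genes were called, against 5 of 9 members. No call was kept by limma on log2 FPKM over all genes above 0 in at least 2 libraries, a form that called 0 genes of the whole table by genotype (0 members in either contrast). With 1 library per group, an effect common to the preparation of both Q175 samples cannot be told apart from genotype. Nor can fewer cells of a type be told apart from less RNA per cell. The fit left 1 residual degree of freedom and shared its estimate of spread across genes. Its p-values and SEs therefore do not measure the spread between pools for a single gene.

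Among the pore subunits, Kcnd2 stood at 264 (WT) and 207 (Q175) CPM in D1 and 220 (WT) and 180 (Q175) CPM in D2. On this scale both Q175 libraries lay below both WT libraries. In FPKM that order did not hold, with 41.71 in D1 Q175 and 41.4 in D2 WT. Its log2 ratios between genotypes, Q175 over WT, were -0.35 (95% counting interval -0.39 to -0.31) for D1 and -0.29 (-0.34 to -0.25) for D2 neurons. Kcnd2 fell in the fit (log2 effect -0.32 ± 0.08, SE; edgeR adjusted p = 0.0061; below WT in D1 and in D2), and it passed in 6 of 10 alternatives, with adjusted p between 0.0054 and 0.29.

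The minor pore subunits did not pass. Kcnd1 stood at 30.2, 27.0, 31.2 and 26.2 CPM, with a log2 effect of -0.21 ± 0.10 (edgeR adjusted p = 0.12). Kcnd3 stood at 21.6, 18.9, 36.5 and 31.6 CPM, with a log2 effect of -0.20 ± 0.10 (adjusted p = 0.14). All 3 pore subunits thus had lower values in Q175 in both cell types, with 1 of 3 past the threshold. Kcnd3 overlaps the antisense gene Kcnd3os, which had 18 to 32 counts, and whether counting used strand is not given in the sources used here.

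Relative to each other the pore subunits held nearly the same proportions. Kcnd3 counts relative to Kcnd2 counts, a ratio that does not depend on the scaling between libraries, were 1.12-fold higher in D1 Q175 than in D1 WT (95% counting interval 1.01 to 1.24) and 1.06-fold in D2 (0.98 to 1.15). Kcnd1 relative to Kcnd2 was 1.14-fold higher in D1 Q175 (1.05 to 1.25) and 1.03-fold in D2 (0.94 to 1.12). The intervals in D2 include 1, and the differences in D1 were small beside those of Dpp10.

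Among the KChIPs, Kcnip2, the partner that dominates in these neurons, stood at 1283 (WT) and 1066 (Q175) CPM in D1 and 1251 (WT) and 926 (Q175) CPM in D2. The WT libraries were nearly alike and D2 Q175 was the lowest. Its log2 ratio was -0.27 in D1 (-0.29 to -0.25) and -0.43 in D2 (-0.45 to -0.42), and in the fit it fell 1.28-fold (-0.35 ± 0.09; edgeR adjusted p = 0.0078). With library totals the adjusted p was 0.053, within a range of 0.0014 to 0.28 over 10 alternatives, of which 4 kept the call.

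Kcnip3, also known as DREAM or calsenilin, binds DNA as a calcium-regulated repressor as well as binding Kv4 channels. It stood at 195 (WT) and 160 (Q175) CPM in D1 and 186 (WT) and 153 (Q175) CPM in D2, with both Q175 libraries below both WT libraries. Its log2 ratio was -0.28 (-0.33 to -0.24) in D1 and -0.28 (-0.33 to -0.23) in D2, and it fell 1.22-fold in the fit (-0.28 ± 0.08; edgeR adjusted p = 0.013). The adjusted p was 0.078 with library totals and ranged from 0.012 to 0.21 over 10 alternatives, 3 of which kept the call.

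Kcnip4, whose splice forms include one that holds Kv4 channels open for longer, was close to level with genotype. It stood at 32.8, 30.3, 37.2 and 38.9 CPM in the same order, with log2 ratios of -0.11 in D1 (-0.23 to 0.00081) and 0.07 in D2 (-0.04 to 0.17) and a fitted effect of -0.02 ± 0.09 (edgeR adjusted p = 0.89). The sign of the fitted effect turned with library totals (0.07). Not all its counts were whole. Of the antisense genes that overlap it, 5730480H06Rik had 228 to 274 counts and Gm20700 had 3, 9, 8 and 16.83 counts.

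Kcnip1 was near the limit of detection, with 15 (WT) and 39 (Q175) counts in D1 and 36 (WT) and 72 (Q175) counts in D2, or 0.39, 0.93, 0.91 and 1.64 CPM. It rose 2.01-fold in the fit (log2 effect 1.01 ± 0.31; edgeR adjusted p = 0.021; higher in both cell types), and 5 of 10 alternatives kept the call, with adjusted p from 0.019 to 0.36 (0.35 with the DESeq2 Wald test). D1 Q175 and D2 WT were alike. The summed level of 5 oligodendrocyte precursor markers was likewise lowest in D1 WT (2.59 CPM) and highest in D2 Q175 (8.11). It was intermediate in D1 Q175 (4.09) and D2 WT (4.43). Of 4 tested 2 rose in Q175, beside 12.8% of all genes tested, and none of the 5 was at 0. The oligodendrocyte, astrocyte and microglia sums given below were also lowest in D1 WT and highest in D2 Q175. The sum over 10 interneuron markers was 12.7, 7.97, 7.32 and 9.02 CPM, with 0 of 7 tested called by genotype (edgeR; Slc5a7 was at 0 in D1 WT and Vip at 0 in both D2 libraries). Interneuron markers ran apart, with Npy at 5.39, 3.28, 0.201 and 0.183 CPM and Pvalb at 0.157, 0.0957, 0.302 and 0.753 CPM. The part of any of these cell types in the level of Kcnip1 was not tested.

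The DPLPs differed in direction, with Dpp10 past the threshold and Dpp6 not. Dpp10 stood at 30.6 (WT) and 42.1 (Q175) CPM in D1 and 42.8 (WT) and 61.2 (Q175) CPM in D2, so that each Q175 library was above its WT counterpart and D1 Q175 was level with D2 WT. Its log2 ratio was 0.46 in D1 (0.35 to 0.57) and 0.51 in D2 (0.43 to 0.60). Dpp10 rose in the fit 1.40-fold (0.49 ± 0.09; edgeR adjusted p = 0.00036; higher in both cell types), and 7 of 10 alternatives kept the call.

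Dpp6, the major DPLP, stood at 338, 317, 374 and 346 CPM. Its fitted effect was -0.11 ± 0.08 (edgeR adjusted p = 0.38), and its log2 ratio in D1, -0.10 (-0.13 to -0.06), turned to 0.0023 with library totals. Relative to Dpp6 counts, Dpp10 counts were 1.47-fold higher in D1 Q175 than in D1 WT (95% counting interval 1.36 to 1.59) and 1.55-fold higher in D2 Q175 than in D2 WT (1.45 to 1.65). These intervals cover counting error alone, and not all counts of Dpp10 were whole.

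The summed levels of glial markers were also higher in the Q175 libraries. The sum over 6 oligodendrocyte markers was 361 (WT) and 434 (Q175) CPM in D1 and 391 (WT) and 507 (Q175) CPM in D2, with 4 of 6 called higher (edgeR) and none at 0. The sum over 6 astrocyte markers was 28.5, 33.9, 36.3 and 49.0 CPM, with 1 of 6 called higher, and that over 6 microglia markers was 13.5, 19.3, 18.7 and 24.0 CPM, with 2 of 6 called higher. Beside these counts, 12.8% of all genes tested were called higher, and no marker of these lists was called lower. Single genes carried much of the sums, with Mbp at 247 CPM and Slc1a3 at 16.9 CPM in D1 WT. Not every marker rose. Sox9 had a log2 effect of -0.107, and Aif1 had 2.09 (WT) and 1.82 (Q175) CPM in D1. The part of glia in the levels of Dpp10 was not tested. Leaving the mitochondrially encoded genes out of the fit gave log2 effects of -0.32 for Kcnd2, -0.35 for Kcnip2, -0.28 for Kcnip3 and 0.49 for Dpp10.

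**Figure D2:**
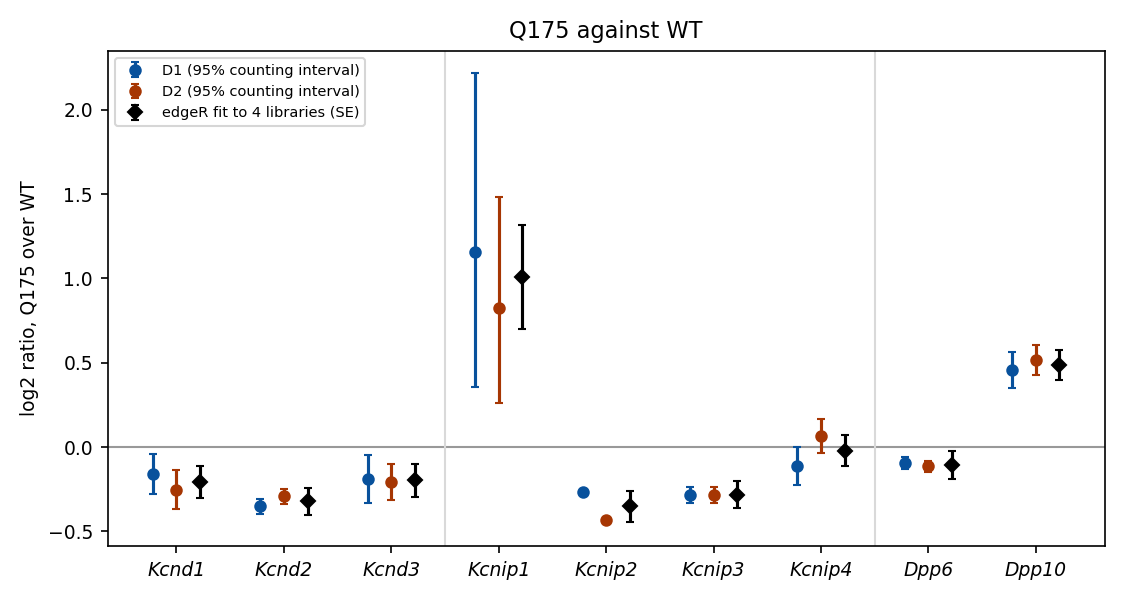
Log2 ratio of Q175 over WT for each member in D1 and in D2 neurons, with 95% counting intervals from 1 library per group, and the edgeR effect fitted to the 4 libraries with its SE. Kcnd2 lies at -0.35 in D1 and -0.29 in D2, Kcnip2 at -0.27 and -0.43, Kcnip3 at -0.28 in both and Dpp10 at 0.46 and 0.51, and Kcnip1, at 15 to 72 counts, has the widest intervals.

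**Figure D3:**
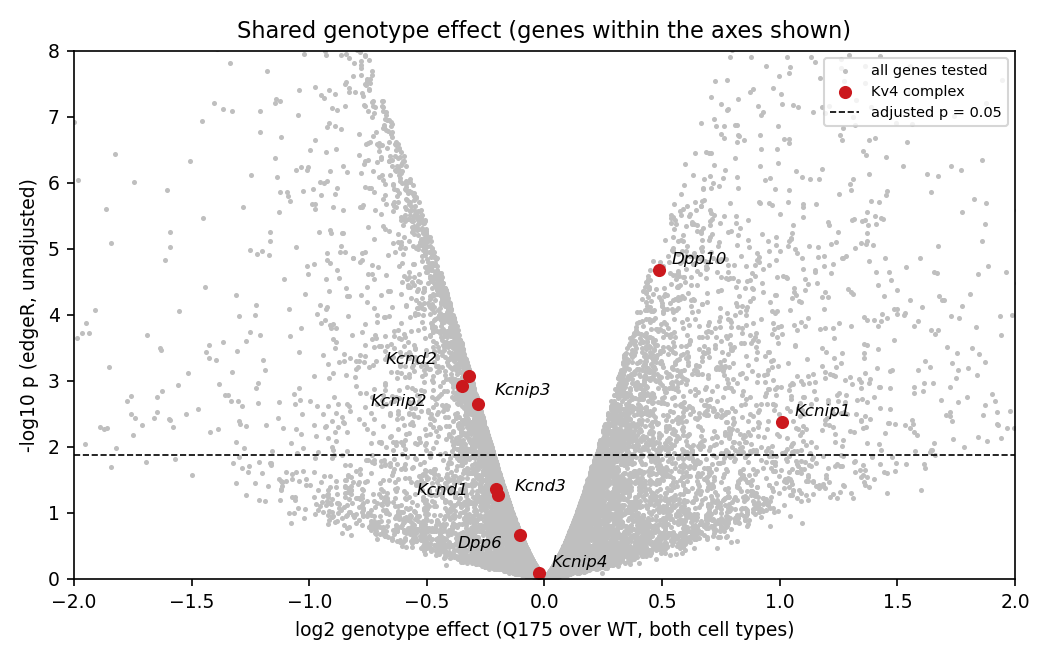
Fitted log2 genotype effect (x axis) against -log10 of the unadjusted edgeR p (y axis) for all genes tested that lie within the axes, with the 9 Kv4 complex genes in red and the threshold dashed. Dpp10, Kcnd2, Kcnip2, Kcnip3 and Kcnip1 lie above the threshold, and the members sit within the cloud of all genes.

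At 5 CPM or more, 0 members reached a 2-fold difference between genotypes, a size that 1.12% of genes reached upward and 0.705% downward in D1 (1.82% in all) and 1.35% and 1.06% in D2 (2.41% in all). Between D2 and D1, 0 such members reached it either, beside 0.867% upward and 1.24% downward in WT (2.1% in all) and 0.764% and 1.08% in Q175 (1.85% in all). The counting interval excluded 0 for 8 of 9 members in each cell type (all except Kcnip4), beside 56.4% of all genes tested in D1 and 59.3% in D2. Between D2 and D1 it excluded 0 for 8 of 9 in WT and 8 of 9 in Q175 (all except Kcnd1), beside 51% and 49.9%. Counting intervals are narrow at this depth and hold no variation between animals or sorts.

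The genotype effect in D2 minus that in D1 could not be tested with 1 library per group. It was widest for Kcnip1 (-0.33, counting interval -1.36 to 0.71), Kcnip4 (0.18, 0.03 to 0.33) and Kcnip2 (-0.17, -0.19 to -0.14). For Kcnd2 (0.06), Dpp10 (0.06), Kcnd3 (-0.02), Dpp6 (-0.02), Kcnip3 (0.0013) and Kcnd1 (-0.09) it was smaller than the median size over all genes tested, 0.17, which was also about the size for Kcnip2.

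The KChIP sum over the pore subunit sum, both in FPKM, was 10.3 (WT) and 10.8 (Q175) in D1 and 11.2 (WT) and 10.5 (Q175) in D2. The DPLP sum over the pore subunit sum was 1.36, 1.66, 1.72 and 2.04 in the same order, higher in Q175 than in WT of each cell type. Such ratios describe transcripts within a library and do not depend on the scaling between libraries.

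In single members, Kcnip2 relative to Kcnd2 went opposite ways, 1.06-fold in D1 Q175 over D1 WT (counting interval 1.03 to 1.09) and 0.91-fold in D2 (0.88 to 0.94). Dpp6 relative to Kcnd2 was 1.19-fold (1.15 to 1.24) and 1.13-fold (1.09 to 1.18), and Dpp10 relative to Kcnd2 was 1.75-fold in both (1.62 to 1.90 in D1 and 1.63 to 1.87 in D2). Kcnip4 relative to Kcnip2 was 1.11-fold in D1 (1.03 to 1.21) and 1.42-fold in D2 (1.32 to 1.52). Each of these is a comparison of single libraries.

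**Figure D4:**
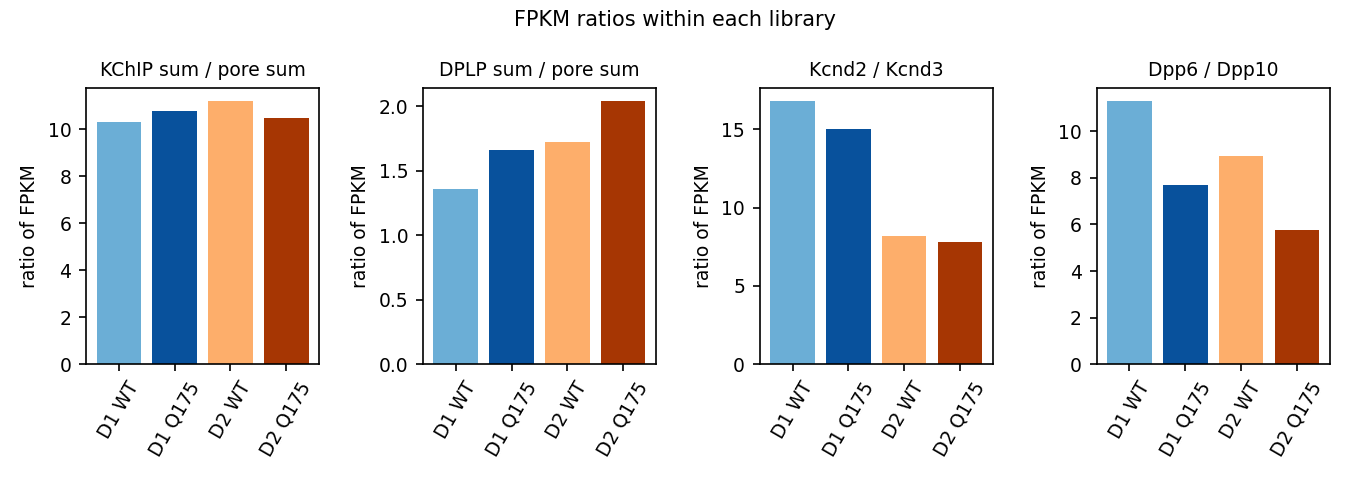
Ratios of FPKM within each library (bars, 1 library each, no error), from left to right the KChIP sum over the pore subunit sum, the DPLP sum over the pore subunit sum, Kcnd2 over Kcnd3, and Dpp6 over Dpp10. The DPLP ratio runs from 1.36 to 2.04, Kcnd2 over Kcnd3 is 16.8 and 15 in D1 against 8.21 and 7.81 in D2, and Dpp6 over Dpp10 is lower in Q175 (7.69 and 5.75) than in WT (11.3 and 8.93).

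The comparison of D2 with D1 neurons described how the complex differs between the pathways. In the same fit 3 of 9 members were higher in D2 and 0 were lower, beside 6.03% and 6.69% of all genes tested (12.7% in either direction). Members higher in D2 numbered 2 with library totals, with DESeq2, without the count filter and with limma on FPKM of the same genes. DESeq2 and limma also called 0 members lower in D2. At an unadjusted p under 0.05, which 4084 of 15651 genes reached in either direction, 1 member (Kcnd2) was lower. The median log2 difference of the members was 0.14, beside -0.0046 for all genes.

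Kcnd3 carried the clearest difference, with 36.5 CPM in D2 WT against 21.6 in D1 WT and 31.6 in D2 Q175 against 18.9 in D1 Q175. Both D2 libraries were above both D1 libraries. It was 1.68-fold higher in D2 (log2 difference 0.75 ± 0.10; edgeR adjusted p = 1.5e-05; in both genotypes), and 7 of 10 alternatives kept the call. Kcnd2 ran the other way, with log2 ratios of -0.27 in WT (-0.31 to -0.22) and -0.21 in Q175 (-0.25 to -0.16), and its fitted difference of -0.24 ± 0.08 did not pass (edgeR adjusted p = 0.065, and 0 of 10 alternatives passed).

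The ratio of Kcnd2 over Kcnd3 in FPKM was 16.8 in D1 WT and 15 in D1 Q175 against 8.21 in D2 WT and 7.81 in D2 Q175. Counts of Kcnd3 relative to Kcnd2 were 2.03-fold higher in D2 than in D1 in WT (95% counting interval 1.86 to 2.23) and 1.93-fold in Q175 (1.76 to 2.12). Kcnd1 did not follow, with log2 ratios of 0.05 in WT (-0.07 to 0.16) and -0.04 in Q175 (-0.16 to 0.08) and a fitted difference of 0.0022 ± 0.10 (edgeR adjusted p = 0.99).

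Dpp10 was 1.43-fold higher in D2 (0.51 ± 0.09; edgeR adjusted p = 0.00036; in both genotypes), with log2 ratios of 0.48 in WT (0.38 to 0.59) and 0.54 in Q175 (0.45 to 0.63). Dpp6 had log2 ratios of 0.15 (0.11 to 0.18) and 0.13 (0.09 to 0.16), and its fitted difference of 0.14 ± 0.08 did not pass (edgeR adjusted p = 0.32). Some markers of glia were also called higher in D2 (edgeR), beside 6.03% of all genes tested. These were 3 of 6 oligodendrocyte, 3 of 6 astrocyte, 1 of 6 microglia and 1 of 4 tested oligodendrocyte precursor markers. No marker of these lists was called lower, though the microglia marker Aif1 had a log2 difference of -0.615. The part of glia in Dpp10 was not tested.

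Of the KChIPs, 1 of 4 passed between the pathways. Kcnip2 had a log2 ratio of D2 over D1 of -0.04 in WT (-0.05 to -0.02) and -0.20 in Q175 (-0.22 to -0.18), with a fitted difference of -0.12 ± 0.09 (edgeR adjusted p = 0.45). Kcnip3 had -0.07 in both WT and Q175 and a fitted difference of -0.07 ± 0.08 (adjusted p = 0.66). Kcnip4 had 0.18 in WT (0.07 to 0.29) and 0.36 in Q175 (0.25 to 0.46), and its fitted difference of 0.27 ± 0.09 did not pass (adjusted p = 0.065). Kcnip1 was 1.95-fold higher in D2 (0.96 ± 0.31; adjusted p = 0.047), a call that 2 of 10 alternatives kept, with adjusted p from 0.043 to 0.90.

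**Figure D5:**
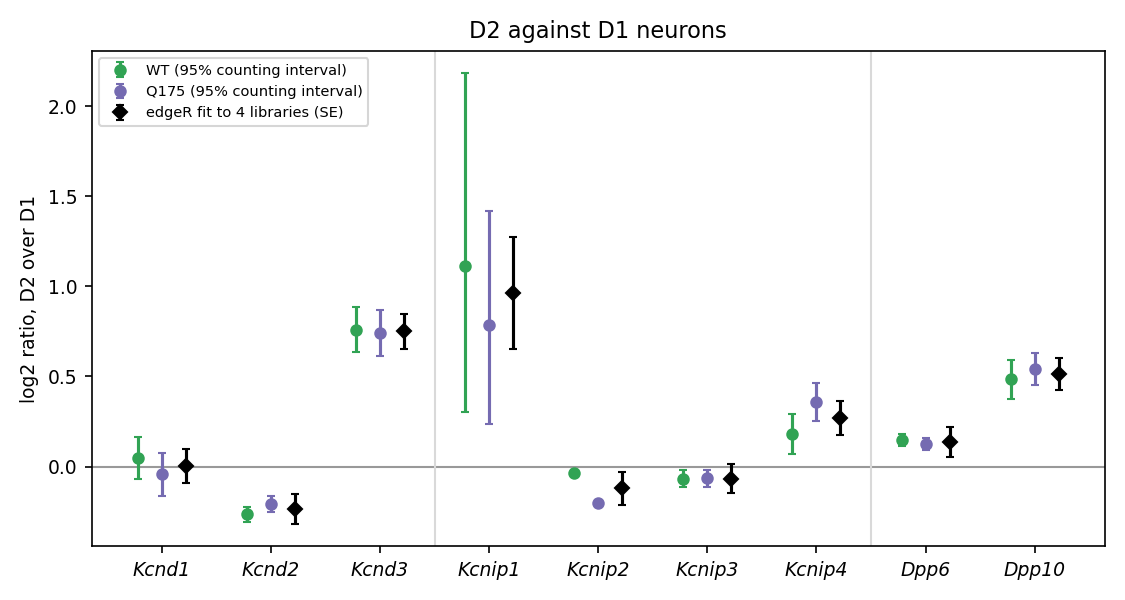
Log2 ratio of D2 over D1 for each member in WT and in Q175, with 95% counting intervals from 1 library per group, and the edgeR difference fitted to the 4 libraries with its SE. Kcnd3 lies near 0.75 and Dpp10 near 0.5 in both genotypes, Kcnd2 lies below 0, and Kcnip2 and Kcnip4 differ most between WT and Q175 apart from Kcnip1.

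Of 21 listed regulators 17 were tested, and 9 fell and 0 rose in Q175 (edgeR), with a median log2 effect of -0.25, where 14.1% of all genes tested fell and 12.8% rose with a median of -0.0036. The same shares of all genes stand beside the counts of the 5 lists that follow. All these lists were chosen with earlier results of these data known, so a count above those shares is no independent support. With genotype alone in the model, or with limma on FPKM of all genes above 0, 0 genes of any of these lists were called. Kcnab1, a cytosolic beta subunit of potassium channels, stood at 661, 362, 568 and 336 CPM (-0.81 ± 0.09; adjusted p = 1.5e-06). Kif17, a kinesin that carries Kv4.2 into dendrites, fell by 0.44 ± 0.08 on the log2 scale (adjusted p = 0.00042), and Akap5, the anchor that holds protein kinase A beside the channel, fell by 0.45 ± 0.08 (adjusted p = 0.00049). Ncs1, a calcium sensor that can bind Kv4 as KChIPs do, had an effect of 0.12 ± 0.08 (adjusted p = 0.31). The count that fell was 6 with DESeq2, 5 with library totals, 5 without the count filter and 4 with limma on FPKM of the same genes.

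Other subunits that can give an A-type current also moved. Of 5 tested, 3 fell and 1 rose, with a median of -0.28, beside 14.1% and 12.8% of all genes. With DESeq2 2 fell and 0 rose, and with limma on log2(FPKM + 0.1) 1 fell and 1 rose. Kcna4, which encodes Kv1.4, stood at 131, 109, 123 and 99.8 CPM (-0.28 ± 0.08; edgeR adjusted p = 0.012), beside -0.32 for Kcnd2. Kcna1 fell by 0.37 ± 0.08 (adjusted p = 0.0023) and Kcna2, under 5 CPM in all libraries, by 0.73 ± 0.18 (adjusted p = 0.0045). Kcnc4, which encodes the fast-inactivating Kv3.4, rose (1.76 ± 0.36; adjusted p = 0.0013) and stayed under 2 CPM in all libraries.

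T-type calcium channels can form complexes with Kv4 and KChIPs in other neurons. Of 3 tested, 0 fell and 1 rose, beside 12.8% of all genes that rose. This was Cacna1g, at 2.27 (WT) and 7.87 (Q175) CPM in D1 and 1.26 (WT) and 11 (Q175) CPM in D2 (2.42 ± 0.22; edgeR adjusted p = 2.9e-07). The more abundant Cacna1h (308, 306, 381 and 336 CPM in the order above) had an effect of -0.10 ± 0.09, and Cacna1i (212, 204, 258 and 230 CPM) had -0.11 ± 0.08. Neither passed, and both were named after their values were seen.

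The list tied to the repressor function of Kcnip3 was mixed. Of 9 genes described as its targets or partners 8 were tested, and 5 fell and 2 rose, with a median of -0.31, beside 14.1% and 12.8% of all genes. With library totals 2 fell and 2 rose, with DESeq2 2 fell and 1 rose, without the count filter 2 fell and 2 rose, and with limma on FPKM of the same genes 1 fell and 2 rose. Atf6, a stress sensor that binds Kcnip3, stood at 151, 72.8, 121 and 71.9 CPM (-0.90 ± 0.09; edgeR adjusted p = 4.7e-07). Fos rose (0.49 ± 0.09; adjusted p = 0.00029), and so did Psen2, a presenilin that binds Kcnip3 (0.55 ± 0.13; adjusted p = 0.0033). Pdyn, the prodynorphin gene that Kcnip3 represses, fell by 0.32 ± 0.11 (adjusted p = 0.042), with opposite signs in D1 (-0.42) and D2 (0.22, at 1.31 and 1.53 CPM).

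Relatives of the auxiliary subunits did not share a direction. Of 8 neuronal calcium sensor genes tested, 3 fell and 2 rose, with a median of -0.05, beside 14.1% and 12.8% of all genes. The count that rose was 1 with DESeq2, without the count filter and with limma on log2(FPKM + 0.1). Vsnl1, which encodes visinin-like protein, rose, with 19.6 (WT) and 48.5 (Q175) CPM in D1 and 7.14 (WT) and 22.7 (Q175) CPM in D2 (1.47 ± 0.11; edgeR adjusted p = 2.9e-08), while Hpca, which encodes hippocalcin, fell by 0.69 ± 0.10 (adjusted p = 3.2e-05) and Hpcal4 by 0.45 ± 0.08 (adjusted p = 0.0006). Of 4 dipeptidyl peptidase relatives tested 1 fell, Dpp8 (-0.38 ± 0.08; adjusted p = 0.0017), and 0 rose, beside 14.1% and 12.8% of all genes. With library totals and with both forms of limma on FPKM of the same genes 1 rose, and with limma on log2(FPKM + 1) 0 fell.

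The genes whose levels over the 4 libraries were most like those of Kcnd2 were Specc1, Tspan7 and Fam131b, by Euclidean distance of centred log2 CPM among 9740 genes with at least 5 CPM in every library. Their distances were 0.0045, 0.0089 and 0.012. For Kcnip2 they were Psip1 (0.011), Cdk17 (0.028) and Dph1 (0.030), and for Dpp10 they were Selenop (0.030), Lix1 (0.042) and Lrp8 (0.071). With 4 libraries such closeness is a description of the pattern alone, and the distance was wider for Dpp10 than for Kcnd2.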

How the data were processed

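RNA of sorted striatal neurons was sequenced in 4 libraries. The authors deposited expected counts, also called estimated counts, which divide reads among Ensembl genes and were made with a tool not named; this unit was read from the values, of which 16.3% were not whole within 0.001. They also deposited FPKM, a count divided by transcript length and depth; the unit is the one in the file's title. The submitters' processing notes name CASAVA 1.8.2. The aligner, the counting tool and the build were not given in the sources used here.

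Symbols were matched for 32897 of 37620 identifiers. Counts were rounded and scaled by the trimmed mean of M values (TMM) in edgeR 4.0.16 (R 4.3.3), where 1 normalized CPM stood for 38.2 to 43.8 counts. Log2 ratios used a prior count of 2 and 95% exact conditional binomial intervals; within-library count ratios used Fisher's conditional interval; the difference of genotype effects used a normal counting interval. All cover counting error alone and take each read as independent. Reads lacking molecular identifiers can be copies of a molecule, so the intervals can be too narrow even for that error. The quasi-likelihood test (two-sided, filterByExpr, Benjamini-Hochberg over 15651 genes) fitted cell type and genotype additively. The scripts were tested on simulated data. There the fit called 20% of 50 genes given a 1.25-fold genotype effect, and 92% at 1.5-fold. Members that did not pass can thus hold effects of small size. DESeq2 1.42.0 and limma 3.58.1 served as alternatives. No group was replicated: the counting intervals hold no spread between animals or pools, and the 1 residual degree of freedom of the fit mixes differences between pools with any interaction of cell type and genotype.

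The members and lists were chosen with earlier results of these data known. All 9 members were named; of each other list, the 3 smallest p-values among called genes and 4 fixed genes (Ncs1, Kcna4, Pdyn and Atf6); and the 3 nearest patterns of Kcnd2, Kcnip2 and Dpp10. Cacna1h and Cacna1i were named after their values were seen. A spiny neuron marker of the list is not reported here, nor is the sum over that list. A form of limma on FPKM without the count filter was run first and was replaced, after its result was seen, by one on the same genes as edgeR; both are given, the first as an alternative chosen after seeing the data.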

Additional observations from a re-analysis of the deposited data

Results flagged for a closer look

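Kcnip4 was the single member whose genotype ratio ran in opposite directions in the D1 and D2 libraries, with a log2 ratio of Q175 over WT of -0.1128 in D1 and 0.06625 in D2. Both counting intervals include 0, and the difference between the cell types was not tested. No group had enough libraries to look for a library far from the others.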

How the results depend on the processing

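No paired analysis was possible because each group had 1 library and the labels give no replicate numbers, and leaving out a library leaves no residual degree of freedom. Of the alternative values for single members and lists, 488 kept direction and call or stayed within the counting interval, 100 moved, 39 lost the call and 9 turned. Members called higher in Q175 (2) numbered 1 with DESeq2, 1 without filter and 0 with genotype alone. Members called lower (3) numbered 2 without filter, 1 with library totals and 0 with genotype alone. With limma on FPKM they numbered 1 and 0 (pseudocounts 0.1 and 1). Members called higher in D2 (3) numbered 2 with library totals, with DESeq2 and without filter. They also numbered 2 with limma on FPKM of the same genes, and 0 with cell type alone. Limma on log2 FPKM over all genes above 0 in at least 2 libraries, which was run first and kept as an alternative chosen after seeing the data, called 0 genes and 0 members in either direction by genotype and 0 members by cell type at both pseudocounts; by cell type it called 18 genes higher and 13 lower (0.1) and 3 and 3 (1). Adjusted p was then 0.137 and 0.148 for Kcnd2, 0.1 and 0.132 for Dpp10 by genotype and 0.188 and 0.246 for Kcnd3 by cell type. The sign turned for Kcnip4 by genotype (0.0658 with library totals, 0.0677 and 0.0646 with limma on FPKM, in both gene sets), for Kcnd1 by cell type (-0.00731 with library totals) and for Dpp6 in D1 (0.00225 with library totals, 0.00226 and 0.00223 with FPKM). Library totals shifted the median ratio of all genes in D1 by 0.097 and in D2 by 0.076. Over all genes, calls higher in Q175 (1999) were 696 with DESeq2, 1002 without filter and 2 with genotype alone, and calls lower (2207) were 1382 with library totals, 1241, 1180, 1140 and 989 with DESeq2, without filter and with limma at both pseudocounts, and 2. Calls higher in D2 (943) were 361, 286, 628, 471 and 32, and lower (1047) were 489, 377, 691, 530 and 46, with DESeq2, without filter, with limma and with cell type alone. By genotype, upward calls made up 35.9% with DESeq2 and 68.6% with limma. By cell type they made up 42.5% with DESeq2 and 47.6% and 47.1% with limma. With a minimum of 20 CPM, 2-fold genes in place of 122 and 77 (D1), 148 and 116 (D2), 94 and 134 (WT) and 84 and 119 (Q175) numbered 28 and 35, 37 and 52, 43 and 63, and 36 and 49. The cause of these shifts was not tested. Depth limits Kcnip1 most, where 3 counts stand for 0.0685 to 0.0784 CPM.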
